A study of Mus musculus with 6 samples.

Results

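The genes described here were the 3 D-type cyclins (*Ccnd1*, *Ccnd2* and *Ccnd3*) and the 7 genes for CDK inhibitors of the CIP/KIP family (*Cdkn1a*, *Cdkn1b* and *Cdkn1c*) and the INK4 family (*Cdkn2a*, *Cdkn2b*, *Cdkn2c* and *Cdkn2d*). They were chosen by symbol as a functional family, by a rule that uses no measured value, and make up 10 of the 56748 gene identifiers in the data. Bulk RNA-Seq had been performed on ureters of wildtype NMRI mouse embryos, dissected at E12.5 and kept as explants on transwell membranes for 18 h. The cultures received either 15 mM LiCl (3 samples) or water as control (3 samples), and both groups were otherwise of the same strain, genotype, stage and culture time. LiCl inhibits the kinase GSK3 and was used in the study to activate canonical WNT signaling, so the comparison asks how the G1 cyclin and CDK inhibitor genes differed after 18 h of LiCl. The ureters held epithelium, mesenchyme and other cells together, and LiCl was added to the whole explant. The sources used here do not say how many ureters made up a sample or whether samples came from separate litters, so the p-values measure only the spread between these samples.

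D-type cyclins bind and activate the kinases CDK4 and CDK6 in G1. The active complexes phosphorylate the retinoblastoma protein and its relatives, which releases E2F factors and leads into S phase. Inhibitors of the INK4 family bind CDK4 and CDK6 and keep the D-type cyclins from them, whereas CIP/KIP inhibitors bind complexes of cyclins and CDKs and mainly restrain CDK2. The D-type cyclins are known to respond to growth signals, and *Ccnd1* is often described as a target of canonical WNT signaling. GSK3 is also known to phosphorylate cyclin D1 protein and to promote its degradation, a step that RNA levels do not report.

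With LiCl, the RNA of 2 inhibitors was higher (*Cdkn1a*, 2.48-fold, and *Cdkn1b*, 1.51-fold), and the RNA of 2 D-type cyclins (*Ccnd1* and *Ccnd3*) and of the inhibitor *Cdkn1c* was lower, by between 1.19-fold and 1.27-fold. *Ccnd1* and *Cdkn1c* no longer passed without LiCl replicates 1 and 3, which had raised skeletal muscle markers. That fit has a single LiCl sample, and their log2 fold changes in it were -0.22 and -0.19, from -0.34 and -0.26. Both genes still passed when only 1 of these replicates was left out. The other 4 of the 9 tested genes did not pass the test, and *Cdkn2a* was too low to be tested. A gene passed the test at an adjusted p under 0.05 (edgeR, quasi-likelihood test, Benjamini-Hochberg adjustment over 18188 genes), and was called when its log2 fold change was also above 1 or below -1. Of all tested genes, 21.1% passed with a higher level and 22.4% with a lower level. Called genes made up 2.74% (higher) and 4.59% (lower). Among the 9 tested members, 2 passed higher, 3 passed lower, 1 was called higher (*Cdkn1a*) and 0 were called lower. The groups did not overlap in 5 of the 9, against 54.2% of all tested genes, so shares of members past the test and without overlap were near those of the background. The median log2 fold change was -0.13 over the 9 members and -0.01 over all tested genes.

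Upstream sequence is shown for *Cdkn1a* and *Cdkn1b*, the members with higher levels, and for 1 start of *Ccnd3*, a member with a lower level. The windows comprise 250 bases before an annotated start and were taken from RefSeq (build GRCm38.p6). The set of windows used here held 11 for 7 of the 10 members. *Ccnd1*, *Ccnd2* and *Cdkn1c* had no window in that set, so their upstream sequence was not searched for motifs. Each window shown is given 5′ to 3′ on the strand of the gene. Capitals mark a unit of the p53 motif, which p53 binds as a pair, or a GC box (GGGCGG on either strand). The first start of *Cdkn1a* is at the end of chr17:29090729-29090978 (plus strand) and the second at the end of chr17:29093519-29093768 (plus strand). The *Cdkn1b* window is chr6:134920151-134920400 (plus strand), and that of the second start of *Ccnd3* is chr17:47593217-47593466 (plus strand).
Cdkn1a, first start: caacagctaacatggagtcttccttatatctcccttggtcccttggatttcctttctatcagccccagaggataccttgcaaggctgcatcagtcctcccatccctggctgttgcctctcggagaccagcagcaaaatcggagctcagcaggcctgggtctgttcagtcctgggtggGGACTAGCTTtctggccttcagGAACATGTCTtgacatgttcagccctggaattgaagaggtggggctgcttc
Cdkn1a, second start: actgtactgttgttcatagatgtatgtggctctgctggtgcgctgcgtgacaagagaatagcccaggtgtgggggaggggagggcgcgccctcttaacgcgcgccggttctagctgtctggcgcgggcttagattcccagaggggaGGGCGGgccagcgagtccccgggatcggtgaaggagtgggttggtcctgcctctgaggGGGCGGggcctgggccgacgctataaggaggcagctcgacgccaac
Cdkn1b: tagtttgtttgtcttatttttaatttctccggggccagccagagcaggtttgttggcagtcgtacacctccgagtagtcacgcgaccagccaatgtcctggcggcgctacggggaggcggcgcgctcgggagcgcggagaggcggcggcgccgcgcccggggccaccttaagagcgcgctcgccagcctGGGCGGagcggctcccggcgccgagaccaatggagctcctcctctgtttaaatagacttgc
Ccnd3, second start: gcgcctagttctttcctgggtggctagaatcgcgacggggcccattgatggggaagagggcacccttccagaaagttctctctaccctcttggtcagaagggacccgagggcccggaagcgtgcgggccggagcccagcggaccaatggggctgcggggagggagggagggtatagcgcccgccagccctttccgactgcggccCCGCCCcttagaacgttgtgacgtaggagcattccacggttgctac

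The window before the first *Cdkn1a* start held 2 exact matches to the p53 motif unit, which began 73 and 51 bases before the start. The search allowed no mismatch. The stretch directly after the second unit, tgacatgttc, differs from the pattern only in its first letter and was left unmarked. Which of these stretches p53 binds as a pair was not tested. A pair of such units with a spacer of at most 13 bases was present in 21 of all 32851 windows (0.0639%), and a single unit in 7.13%. Of the other members, 1 window (*Cdkn2d*) held a single unit, which overlapped a GC box. GC boxes were present in 32.7% of all windows, and among the 4 windows shown the second *Cdkn1a* start had 2 and the *Cdkn1b* and *Ccnd3* starts had 1 each. These GC-rich windows contained 64.8% G and C (second *Cdkn1a* start and *Ccnd3*) and 64.4% (*Cdkn1b*), against a median of 52.4% over all windows. The TCF/LEF motif CTTTGNT, present in 16.0% of all windows on either strand, occurred in 1 of the 11 member windows (first start of *Cdkn2a*), and the FOXO motif TGTTTAC, present in 3.17%, in 1 (first start of *Ccnd3*). The motif lists were chosen with the expression results known, and a match describes letters only.

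Levels of different genes were compared as FPKM, which the authors deposited per sample and which divides by gene length. In controls the order of the mean levels was *Cdkn1c* (195 ± 7.46 FPKM, SD, n = 3), *Ccnd1* (59.3 ± 4.90), *Ccnd2* (56.6 ± 4.18), *Ccnd3* (20.9 ± 0.369), *Cdkn1b* (15.9 ± 0.825), *Cdkn2d* (9.40 ± 0.846), *Cdkn1a* (6.57 ± 1.29), *Cdkn2c* (0.981 ± 0.265), *Cdkn2b* (0.434 ± 0.0707) and *Cdkn2a* (0.00911 ± 0.0158). The sample ranges of *Ccnd1* and *Ccnd2* overlapped, and no other neighbours in this order overlapped. In LiCl samples *Cdkn1b* (24.3 ± 0.173 FPKM) stood above *Ccnd3* (17.4 ± 0.0179) and *Cdkn1a* (16.5 ± 0.852) above *Cdkn2d* (10.6 ± 1.09), the reverse of the control order for both pairs and without overlap in either group. The remaining order was *Cdkn1c* first (165 ± 7.29 FPKM), *Ccnd2* (52.5 ± 2.67) and *Ccnd1* (47.3 ± 4.05) overlapping with each other, and *Cdkn2c*, *Cdkn2b* and *Cdkn2a* last. Both reversals depend on the gene lengths in the FPKM (8775 bases for *Ccnd3*, 4552 for *Cdkn1b*, 3553 for *Cdkn1a* and 1574 for *Cdkn2d*). In counts scaled to library size (CPM), *Ccnd3* stayed above *Cdkn1b* (186 and 73.4 in controls, 153 and 110 with LiCl). *Cdkn1a* was above *Cdkn2d* in both groups (23.6 and 14.9 CPM in controls, 58.6 and 16.6 with LiCl).

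**Figure D1:**
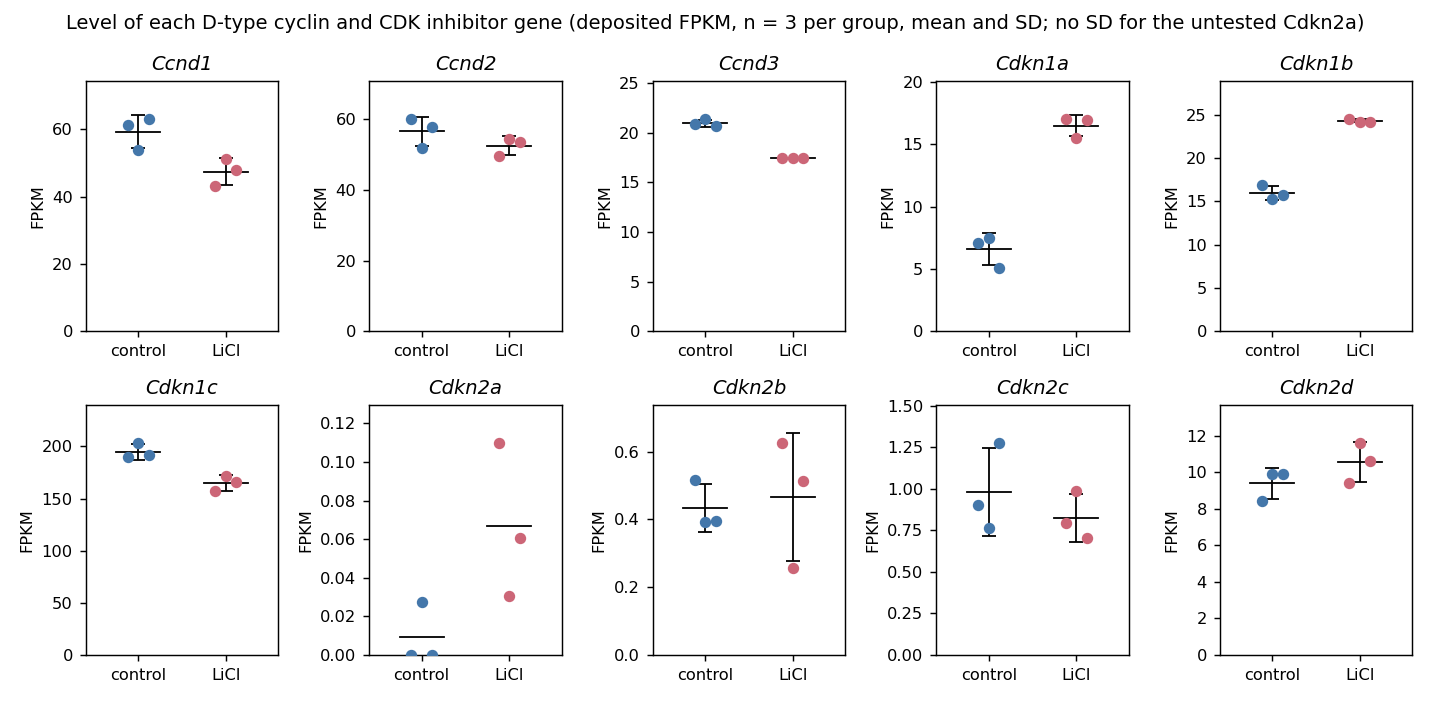
Level of each of the 10 genes (y axis, FPKM, linear from 0, with a separate scale per panel) in the 3 control and 3 LiCl samples (points), with the group mean (line) and SD (bars, not drawn for the untested *Cdkn2a*). *Cdkn1a* and *Cdkn1b* were higher in every LiCl sample than in every control sample, and *Ccnd1*, *Ccnd3* and *Cdkn1c* lower.

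Of the D-type cyclins, *Ccnd1* encodes cyclin D1. Its level was 61.1, 53.7 and 63.0 FPKM in the control samples and 43.1, 51.1 and 47.8 FPKM in the LiCl samples (8423, 7893 and 9172 counts against 6301, 6736 and 6327). All LiCl samples lay below all control samples, though control replicate 2 and LiCl replicate 2 were separated by a small gap. The log2 fold change was -0.34 (SE 0.08, 95% interval -0.52 to -0.16, edgeR adjusted p = 0.0069).

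*Ccnd2*, which encodes cyclin D2 and had counts as high as 16837, was measured at 60.0, 52.0 and 57.8 FPKM in controls and at 49.5, 54.5 and 53.6 FPKM with LiCl. The groups overlapped, since control replicate 2 was below 2 of the LiCl samples. The log2 fold change of -0.13 (SE 0.06, 95% interval -0.27 to 0.02) did not pass the test (edgeR adjusted p = 0.15).

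*Ccnd3*, which encodes cyclin D3, was the least variable cyclin within groups. It measured 20.8, 21.3 and 20.6 FPKM in controls and 17.5, 17.4 and 17.4 FPKM with LiCl. The groups were apart, with a log2 fold change of -0.28 (SE 0.04, 95% interval -0.37 to -0.19, edgeR adjusted p = 0.0006). The exons of *Ccnd3* and *Ccnd1* overlap genes on the opposite strand, *Bysl* and *LTO1*, in GENCODE vM21. These neighbours had 23.7% and 13.1% as many counts as the cyclin and log2 fold changes of 0.12 (edgeR adjusted p = 0.08) and 0.14 (edgeR adjusted p = 0.093), and the strand setting of the counting is not given in the sources used here.

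The sum of the D-type cyclins was 137 ± 8.48 FPKM in controls and 117 ± 6.65 FPKM with LiCl (SD, n = 3). *Ccnd1* made up 43.3 ± 1.13% of it in controls and 40.3 ± 1.20% with LiCl, *Ccnd2* 41.4 ± 0.801% and 44.8 ± 0.444%, and *Ccnd3* 15.4 ± 1.26% and 14.9 ± 0.878%. The log2 ratio of *Ccnd2* to *Ccnd1* in FPKM was -0.03, -0.05 and -0.12 in the control samples and 0.20, 0.09 and 0.17 in the LiCl samples. It was negative in every control sample and positive in every LiCl sample, with a difference of 0.22 (exact two-sided permutation p = 0.1, the smallest that 3 against 3 samples can give, and adjusted p = 0.15 over the 3 ratios compared). The sign of this ratio depends on the gene lengths in the FPKM (9409 bases for *Ccnd2* and 4709 for *Ccnd1*). In CPM, *Ccnd2* was above *Ccnd1* in both groups (539 and 282 in controls, 494 and 223 with LiCl), and the difference was again 0.22.

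The CIP/KIP inhibitors moved in different directions. *Cdkn1a* encodes p21, known as a target of p53 and as an inhibitor of CDK2. It measured 7.12, 7.50 and 5.09 FPKM in controls and 17.0, 15.5 and 17.0 FPKM with LiCl (741, 832 and 560 against 1879, 1542 and 1693 counts). The lowest LiCl value exceeded the highest control value, and control replicate 3 was the lowest sample of all. The log2 fold change was 1.31 (SE 0.12, 95% interval 1.03 to 1.59, edgeR adjusted p = 4.8e-05), so that *Cdkn1a* was the only tested member called. A gene model on the opposite strand, AC167363.2, overlaps an exon of *Cdkn1a* in GENCODE vM21 and held 2.00% as many counts, with a log2 fold change of 1.80 (edgeR adjusted p = 0.0017).

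*Cdkn1b* encodes p27, which restrains CDK2 and also associates with complexes of cyclin D and CDK4. It measured 16.9, 15.3 and 15.7 FPKM in controls and 24.5, 24.2 and 24.2 FPKM with LiCl. The LiCl samples were above every control and close to each other. The log2 fold change was 0.59 (SE 0.05, 95% interval 0.47 to 0.71, edgeR adjusted p = 3.5e-05), short of the fold needed for a call.

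*Cdkn1c* encodes p57, is imprinted and is expressed from the maternal allele. It was the highest of the 10 genes per length, with 189, 203 and 192 FPKM in controls and 157, 172 and 166 FPKM with LiCl. The LiCl samples were below every control sample. Its log2 fold change was -0.26 (SE 0.05, 95% interval -0.37 to -0.15, edgeR adjusted p = 0.0026).

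The 7 inhibitor genes together summed to 228 ± 7.82 FPKM in controls and 218 ± 7.37 FPKM with LiCl, and the share of *Cdkn1c* was 85.4 ± 0.466% and 75.8 ± 0.795%. *Cdkn1b* made up 6.43 to 7.55% of the sum in controls and 10.8 to 11.7% with LiCl, and *Cdkn1a* 2.27 to 3.19% and 6.91 to 8.11%, values given as a description with no test. Without *Cdkn1c*, the sum was 33.3 ± 0.850 FPKM in controls and 52.7 ± 0.323 FPKM with LiCl, which is 0.245 ± 0.0196 and 0.450 ± 0.0251 FPKM per FPKM of D-type cyclin. With *Cdkn1c* included, the figure was 1.67 ± 0.167 in controls and 1.86 ± 0.0442 with LiCl. The groups then overlapped, since control replicate 2 (1.87) was above LiCl replicates 2 (1.82) and 3 (1.84). The log2 ratio of *Cdkn1a* to *Cdkn1b* was -1.24, -1.02 and -1.63 in controls and -0.52, -0.64 and -0.51 with LiCl. The groups did not overlap, and the difference of 0.74 again had the smallest possible p (exact two-sided permutation p = 0.1, adjusted p = 0.15 over 3 ratios). The log2 ratio of *Ccnd1* to *Cdkn1c*, both of which were lower, differed by -0.08 with overlapping groups (exact two-sided permutation p = 0.5, adjusted p = 0.5 over 3 ratios).

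**Figure D2:**
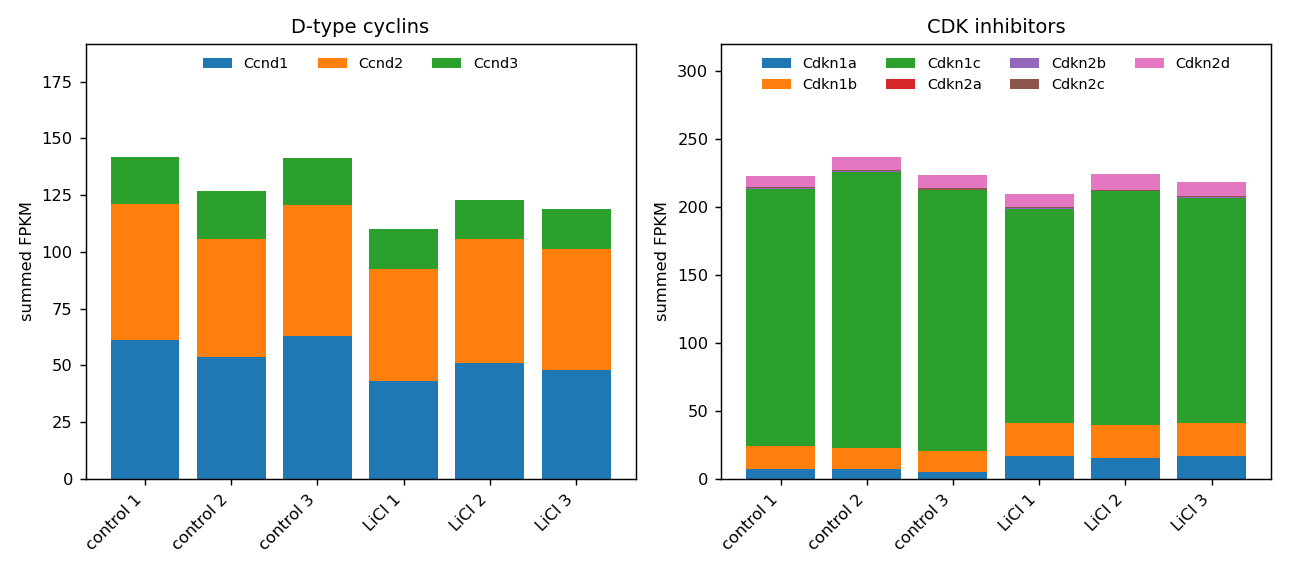
Summed level of the D-type cyclin genes (left) and the CDK inhibitor genes (right) in each sample (y axes, FPKM, stacked from 0), with 1 color per gene. The *Cdkn1c* segment makes up most of each inhibitor bar, and the *Cdkn1a* and *Cdkn1b* segments are taller in the LiCl samples.

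The INK4 inhibitors were low or did not pass the test. *Cdkn2d*, which encodes p19 INK4D, was the most abundant of them, at 8.42, 9.89 and 9.88 FPKM in controls and 9.43, 11.6 and 10.6 FPKM with LiCl. The groups overlapped, and its log2 fold change of 0.15 (95% interval -0.08 to 0.38) did not pass (edgeR adjusted p = 0.26).

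*Cdkn2c*, which encodes p18 INK4C, had 71, 64 and 106 counts in controls and 66, 74 and 53 with LiCl. Control replicate 3 was the highest sample and the groups overlapped. The log2 fold change was -0.27 (95% interval -0.79 to 0.26, edgeR adjusted p = 0.39).

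*Cdkn2b*, which encodes p15 INK4B, had 21, 17 and 17 counts in controls and 27, 10 and 20 with LiCl. The LiCl samples held both the highest and the lowest value. Its log2 fold change was 0.09 with a wide 95% interval from -0.71 to 0.89 (edgeR adjusted p = 0.86).

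*Cdkn2a*, whose locus produces the INK4A and ARF proteins, had 0, 1 and 0 counts in controls and 4, 1 and 2 with LiCl. These totals of 1 and 7 counts over 3 samples each were too few for the filter on low counts, and gene-level counts join the transcripts of both proteins, so no fold is given.

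**Figure D3:**
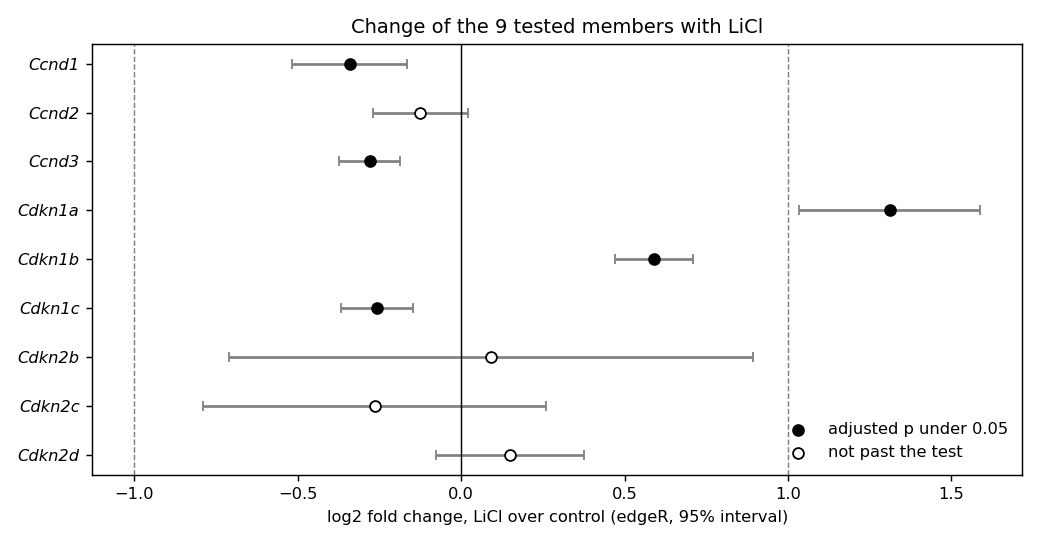
Log2 fold change (x axis, LiCl over control) of the 9 tested genes, with the 95% interval of the edgeR fit (bars). Filled points passed the test at an adjusted p under 0.05, dashed lines mark the fold needed for a call, and only *Cdkn1a* (1.31) lies beyond it.

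Other genes of the G1 machinery and of linked steps, here called G1 partner genes, were examined by role. Of these, 5 are cyclins of the B, F and G types (*Ccnb1*, *Ccnb2*, *Ccnf*, *Ccng1* and *Ccng2*). All 45 were tested, 25 passed higher (21.1% of all tested genes did) and 8 passed lower (22.4%), while 12 did not pass. The median log2 fold change was 0.24. Of these genes, 5 were called higher (2.74% of all tested genes) and 0 lower (4.59%), and 35 had groups that did not overlap (54.2%). The cyclins of the B, F and G types alone gave 3 of the 5 calls. The kinases of the D-type cyclins moved apart. *Cdk4* was 428 ± 20.9 CPM (counts scaled to library size, SD, n = 3) in controls and 490 ± 4.12 CPM with LiCl, a log2 fold change of 0.19 (edgeR adjusted p = 0.0083). *Cdk6* was 74.9 ± 10.9 and 59.1 ± 5.95 CPM, with a log2 fold change of -0.34 (edgeR adjusted p = 0.027) although the groups overlapped.

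Downstream of these kinases, the E-type cyclins that activate CDK2 were lower. *Ccne1* fell from 25.5 ± 0.262 to 18.9 ± 2.36 CPM (log2 fold change -0.43, edgeR adjusted p = 0.0035) and *Ccne2* from 19.6 ± 1.02 to 14.3 ± 0.807 CPM (-0.45, edgeR adjusted p = 0.0015). *Cdk2* had 97.4 ± 3.20 CPM in controls and 106 ± 8.75 CPM with LiCl and did not pass (0.13, edgeR adjusted p = 0.14). *Rb1*, the retinoblastoma gene, was lower (-0.23, edgeR adjusted p = 0.043). Its relatives, given to complete the list after their values were seen, were *Rbl1*, which was higher (0.47, edgeR adjusted p = 0.0002), and *Rbl2*, which was lower (-0.32, edgeR adjusted p = 0.012).

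In contrast, 5 partner genes were called higher. *E2f1*, an E2F factor of the G1 to S transition, rose from 36.3 ± 2.57 to 95.7 ± 11.9 CPM (log2 fold change 1.40, edgeR adjusted p = 6.1e-06). The mitotic cyclins *Ccnb1* (1.71) and *Ccnb2* (1.51) and the G2 cyclin *Ccnf* (1.34) had edgeR adjusted p-values of 6.7e-07, 3.2e-07 and 6.1e-07. The A-type cyclin *Ccna1* was at 0.323 ± 0.172 CPM in controls and 0.746 ± 0.0394 CPM with LiCl (1.20, edgeR adjusted p = 0.035), a low level. The other A-type cyclin, *Ccna2*, named after its values were seen, was at 63.3 ± 3.30 and 126 ± 1.99 CPM, with a log2 fold change just short of a call (0.999, edgeR adjusted p = 1.5e-06).

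By role, 5 of 10 E2F and DP factors passed higher and 0 lower (21.1% and 22.4% of all tested genes did). Of the 10 regulators of CDK inhibitor transcription, 7 passed higher and 1 lower. Chosen after their values were seen, *Trp53*, which encodes p53, had a log2 fold change of 0.55 (edgeR adjusted p = 8.1e-05), *Foxo1* of 0.67 (edgeR adjusted p = 3.4e-05) and *Foxo3* of -0.33 (edgeR adjusted p = 0.0024). Both FOXO factors are known to activate *Cdkn1b*. *Foxo4*, the other FOXO gene listed, had a log2 fold change of -0.13 and did not pass (edgeR adjusted p = 0.076). Among 9 genes for turnover of the cyclins and CIP/KIP proteins, 4 passed higher and 2 lower. *Skp2* and *Cks1b*, which encode parts of the ligase that degrades p27, had log2 fold changes of 0.49 (edgeR adjusted p = 3.1e-05) and 0.81 (edgeR adjusted p = 6.7e-06), again chosen after their values were seen.

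**Figure D4:**
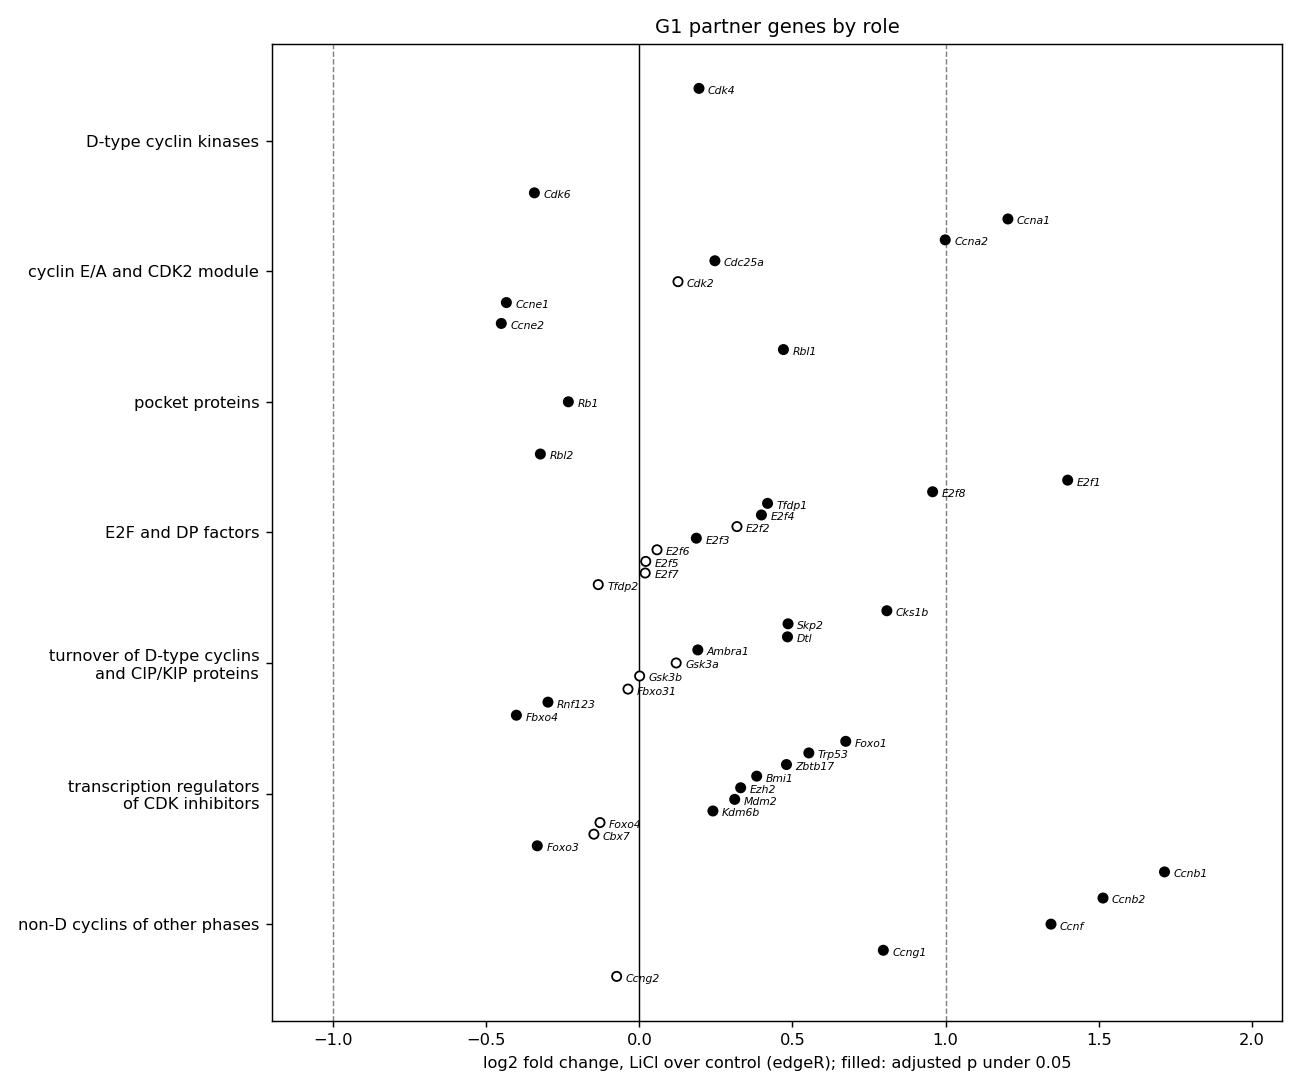
Log2 fold change (x axis, LiCl over control, edgeR) of the 45 G1 partner genes, grouped by role (y axis). Filled points passed the test, open points did not, and dashed lines mark the fold needed for a call, beyond which lie *E2f1*, *Ccna1*, *Ccnb1*, *Ccnb2* and *Ccnf*.

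Values of other genes that moved alongside the members are given here. Of 12 S phase genes 8 passed higher (21.1% of all tested genes did) and 0 were called, with a median log2 fold change of 0.31. All 12 mitotic genes were called higher (2.74% of all tested genes were), with a median of 1.32. Both lists were chosen with earlier results of these data known. Markers of the tissue itself differed between groups, where 22.4% of all tested genes passed lower and 21.1% higher. Of 8 ureteric epithelium markers 7 passed lower and 1 higher, and their summed level was 1224 to 1531 CPM in controls and 845 to 878 CPM with LiCl. Of 8 mesenchyme markers 6 passed lower, with sums of 6199 to 6994 CPM in controls and 4425 to 4913 CPM with LiCl. Most of these sums came from *Col1a1* (mean 2614 CPM in controls and 1984 with LiCl) and *Col3a1* (1867 and 1211). *Foxf1* (log2 fold change 0.08) and *Ptch1* (0.10) did not pass. Among 6 smooth muscle markers 4 passed lower. In bulk samples, fewer cells of a type and less RNA per cell cannot be told apart, and the part of these shifts in the members' differences was not tested.

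The 3 LiCl samples were not alike in skeletal muscle markers. The summed level of the 8 markers was 5.48 to 6.50 CPM in controls and 34.9, 7.02 and 73.5 CPM in LiCl replicates 1, 2 and 3. Without LiCl replicates 1 and 3, log2 fold changes were -0.22 for *Ccnd1*, -0.19 for *Cdkn1c* and -0.27 for *Ccnd3*, in a fit that has a single LiCl sample. *Ccnd1* and *Cdkn1c* did not pass in it, and fewer of all tested genes passed too. In the same fit *Cdkn1a* was at 1.23 and *Cdkn1b* at 0.59. Total counts were between 28473436 and 31266945 per sample.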

How the data were processed

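RNA-Seq libraries (poly-A enriched, stranded, paired-end) of 3 control and 3 LiCl samples were analysed, grouped by the sample labels. The authors deposited raw counts per gene and, for each sample, FPKM values. The methods name HISAT2 as aligner, whereas the submitters' processing notes list fastp 0.23, STAR 2.7, featureCounts 2.0, DESeq2 1.40 and build GRCm39. The annotation release and the strand setting are not given in the sources used here. The deposited FPKM equal counts divided by a size factor and by a whole-number length (within 0.05 bases) in 100% of 13480 genes with over 50 counts in every sample.

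Counts were tested in edgeR 4.0.16 (R 4.3.3; filterByExpr, TMM, quasi-likelihood test, Benjamini-Hochberg adjustment over 18188 genes) without covariates. CPM are counts scaled to library size with TMM factors. Ratios of FPKM were compared by exact permutation tests. Alternatives included DESeq2 1.42.0 and limma 3.58.1 on deposited FPKM on a log2 scale (pseudocount 1 or 0.1, mean FPKM 0.5 or more).

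The genes named were all members, *Cdk4*, *Cdk6*, *Cdk2*, *Ccne1*, *Ccne2*, *Rb1*, every called partner gene, the 2 genes (mean CPM of at least 10) that correlated best with each tested member, and the 2 protein-coding neighbours on each side. The text gives a selection of the last 2 kinds, and further partner genes chosen after their values were seen. Members and lists were chosen with earlier results of these data known. Symbols came from GENCODE vM21 (52073 of 56748 identifiers matched). Because that annotation is of another build, no coordinates are given for the counts. Promoter windows, with their coordinates, and gene order came from RefSeq GRCm38.p6.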

Additional observations from a re-analysis of the deposited data

How the results depend on the processing

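Over the alternatives, *Cdkn1a* kept a log2 fold change between 1.16 and 1.42 (adjusted p at most 0.0022) and *Cdkn1b* between 0.55 and 0.64 (adjusted p at most 0.002), both past the test in all 16 alternatives, as was *Ccnd3* (-0.32 to -0.25, adjusted p at most 0.033). *Ccnd1* ranged from -0.41 to -0.22 and *Cdkn1c* from -0.29 to -0.19, and both missed the threshold only without LiCl replicates 1 and 3. Fewer of all tested genes passed in that fit too, both higher and lower. Its lone LiCl sample is assumed to vary like the controls. With all samples, 3 members and 8 G1 partner genes passed lower. Over the alternatives that kept more than 1 LiCl sample these counts were 3 to 4 and 5 to 9. *Ccnd2* passed with library size alone (-0.16, adjusted p = 0.049) and without control replicate 2 (-0.18, adjusted p = 0.029), but in none of the other 14 alternatives. *Cdkn2b* turned to -0.75 without LiCl replicates 1 and 3 and to -0.19 without LiCl replicate 1 (0.38 at most with 1 sample left out), and *Cdkn2c* to 0.0001888 without LiCl replicates 1 and 3. Both were far from the threshold in every alternative, with adjusted p of at least 0.37 and 0.19. The number of G1 partner genes that passed lower was 5 with unfiltered FPKM in limma (pseudocount 1), and between 5 (without LiCl replicate 3) and 7 when 1 sample was left out. The cause was not tested. With the replicate number as a replicate block, members past the test were 2 higher and 3 lower, and no member changed its call. Deviations of same-numbered samples correlated at 0.01, -0.14 and 0.12, and those of unlike-numbered samples at between -0.17 and 0.14. With 3 samples per group, these values cannot decide whether the numbers pair the samples. Across all genes the replicate block left 3379 genes higher and 3602 lower, from 3844 and 4071. Depth limits *Cdkn2a*, *Cdkn2b* and *Cdkn2c*, which had at most 106 counts in a sample.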

Other observations

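Protein-coding genes next to the members in RefSeq gene order give a view of the surrounding loci. Of 36 distinct neighbours that are no members 29 were tested, 4 passed higher (21.1% of all tested genes did), 9 passed lower (22.4%), 0 were called higher (2.74%) and 3 were called lower (4.59%). At the *Cdkn1c* locus, an imprinted cluster, *Kcnq1* was at 1.30 CPM in controls and 0.441 CPM with LiCl (log2 fold change -1.53, edgeR adjusted p = 0.0026), *Trpm5* at 9.25 and 4.00 CPM (-1.21, edgeR adjusted p = 0.00035) and *Slc22a18* at 3.17 and 1.73 CPM (-0.87, edgeR adjusted p = 0.0096). *Phlda2*, the fourth neighbour there, did not pass (-0.63, edgeR adjusted p = 0.058). The other called neighbour was AI661453 near *Ccnd3* (-1.05, edgeR adjusted p = 1.4e-05). Next to *Cdkn1a*, *Stk38* passed higher (0.17, edgeR adjusted p = 0.044), *Cpne5* passed lower (-0.60, edgeR adjusted p = 0.00081) and *Srsf3*, which encodes a splicing factor, did not pass (0.12, edgeR adjusted p = 0.091). At the *Cdkn2a* and *Cdkn2b* locus, *Mtap*, an enzyme of methionine salvage, was at 58.8 and 63.2 CPM (0.10, edgeR adjusted p = 0.22) while the inhibitors themselves were near 0 CPM.

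The genes whose log2 CPM ran most like that of a member over the 6 samples are given as a description, since many genes separate the same 3 control from the same 3 LiCl samples. The closest to *Cdkn1a* was *Ube2k* (Pearson r = 0.997), with 910 of 10720 genes above 0.95. For *Cdkn1b* it was *Nkap* (r = 0.9996, 1236 genes), for *Ccnd3* *Cops5* (r = 0.999, 1055 genes), for *Ccnd1* *Adgrl3* (r = 0.997, 260 genes), for *Cdkn1c* *Amotl2* (r = 0.997, 410 genes) and for *Ccnd2* *Secisbp2l* (r = 0.996, 139 genes). *Cdkn2b*, *Cdkn2c* and *Cdkn2d* had 5, 2 and 8 such genes.

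Lists of other cell types gave these values, where 21.1% of all tested genes passed higher, 22.4% passed lower and 2.74% were called higher. Of 6 endothelial markers 1 passed lower, of 5 tested erythroid markers 2 passed higher, of 6 macrophage markers 4 passed lower and 1 higher, of 6 neural markers 1 passed lower, and of 5 tested kidney nephron markers 2 passed higher and 2 lower. Of 7 tested skeletal muscle markers 6 were called higher, but the LiCl samples were unlike. The sum of all 8 listed was 34.9, 7.02 and 73.5 CPM in LiCl replicates 1, 2 and 3, against 5.48 to 6.50 CPM in controls.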
